A study of Mus musculus with 17 samples.

Results

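The NF-kappaB system was followed through 10 genes in bone marrow endothelial cells from mice with and without induced endothelial deletion of Endoglin (Eng). These are 4 transcription factor genes (Rela, Relb, Nfkb1, Nfkb2), 3 feedback and survival genes (Nfkbia, Tnfaip3, Birc3) and 3 chemokine genes (Ccl2, Cxcl1, Cxcl2). The genes were picked by name, and each name was matched to its Ensembl identifier in GENCODE M21 (mouse assembly GRCm38). All 10 were found among the 49585 genes that each count table lists.

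NF-kappaB proteins act as dimers that are held in the cytoplasm by inhibitors until a signal such as TNF, IL-1 or a bacterial product leads to the breakdown of the inhibitor. In the canonical branch the dimer joins the products of Rela and Nfkb1, and in the non-canonical branch it joins those of Relb and Nfkb2. The freed dimers switch on genes that dampen the response, among them Nfkbia (IkappaB-alpha, which returns the dimer to the cytoplasm) and Tnfaip3 (A20, a ubiquitin-editing enzyme). They also switch on Birc3 (cIAP2, a ubiquitin ligase downstream of TNF receptors) and chemokines. Ccl2 attracts monocytes, and Cxcl1 and Cxcl2 attract neutrophils through Cxcr2. In vessel walls these genes are known for the early endothelial response to inflammation.

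All 17 libraries came from long bones of mice of the Cdh5:CreERT2-Eng f/f line, in which the Cdh5 promoter, active in endothelium, drives a tamoxifen-dependent Cre that removes Eng exons 5 and 6. Tamoxifen was given at 8 weeks of age to the mice of every group, WT included, and it is not stated if WT mice carried the Cre transgene. Cells were collected 2 weeks after tamoxifen (4 WT and 4 KO libraries) or 4 weeks after it (5 WT and 4 KO libraries), as the CD45-, Ter119-, CD31+, Sca1+ fraction of crushed, red-cell-lysed marrow, and sequenced as SmartSeq2 libraries. The Sca1 gate stands in the extraction protocol and is not mentioned in the series' design text. Libraries are named by the sex and number in their titles (f1, m2), and the one WT female without a number is f. The titles do not state that each library is a separate animal, so the p-values measure the spread between these libraries.

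The libraries held 26705337 to 40882715 counts at 2 weeks and 20477400 to 33726630 at 4 weeks, so that 3 counts, taken here as the floor of detection, stood for 0.0734 to 0.1465 CPM (counts scaled to a total of 1000000 per library). The 2-week libraries detected fewer genes (10886 to 13583 against 15996 to 21235) and carried more mitochondrial reads (22.2% to 29.5% against 4.66% to 8.99%). Eng was lower in every KO library than in every WT library of its time point, with 2-week ranges of 705 to 1307 CPM (WT) against 225 to 347 (KO) and 4-week ranges of 2400 to 2735 (WT) against 274 to 1647 (KO). KO m2 at 4 weeks kept the most Eng. The 8 endothelial markers were all detected and summed to 4617 to 6226 CPM at 2 weeks and 9104 to 11350 at 4 weeks. Neutrophil transcripts at 2 weeks summed to 22.7 to 110 CPM in WT but to 106.9 to 4104 CPM in KO, highest in KO m2 (4104) and KO m3 (3150), and to 19.95 to 100.2 CPM in all libraries at 4 weeks. All 9 neutrophil markers were detected in each group. Monocyte and macrophage markers summed to 17.56 to 459.5 CPM at 2 weeks and 25.5 to 53.55 at 4 weeks. Erythroid transcripts were higher in KO at 2 weeks (278 to 1240 CPM against 61.5 to 180) and overlapped at 4 weeks (611 to 2889 against 165 to 1267).

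Nfkbia was the most abundant of the 10 transcripts at both times. On a scale of counts per kilobase of exon, scaled to the same total of 1000000 in each library, its median level was 1240 over the 9 libraries at 4 weeks. Cxcl1 followed at 193, Rela at 106, Relb at 58.1, Nfkb2 at 25.2, Nfkb1 at 22.6, Birc3 at 19.7, Tnfaip3 at 10.99, Ccl2 at 5.98 and Cxcl2 at 5.05. Only Nfkbia was set apart from the next gene in this order, since the ranges over libraries of all other neighbours overlapped. At 2 weeks the median was 578 for Nfkbia, 54.7 for Rela, 32.1 for Relb, 29.8 for Nfkb1, 19.7 for Nfkb2 and 6.93 for Birc3, whereas Ccl2 lay at 0.12 and Tnfaip3, Cxcl1 and Cxcl2 at 0. Again only the gap between Nfkbia and Rela exceeded the spread. The 4-week libraries each held 9 or 10 of the genes above 3 counts, and the 2-week libraries 5 to 9.

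**Figure D1:**
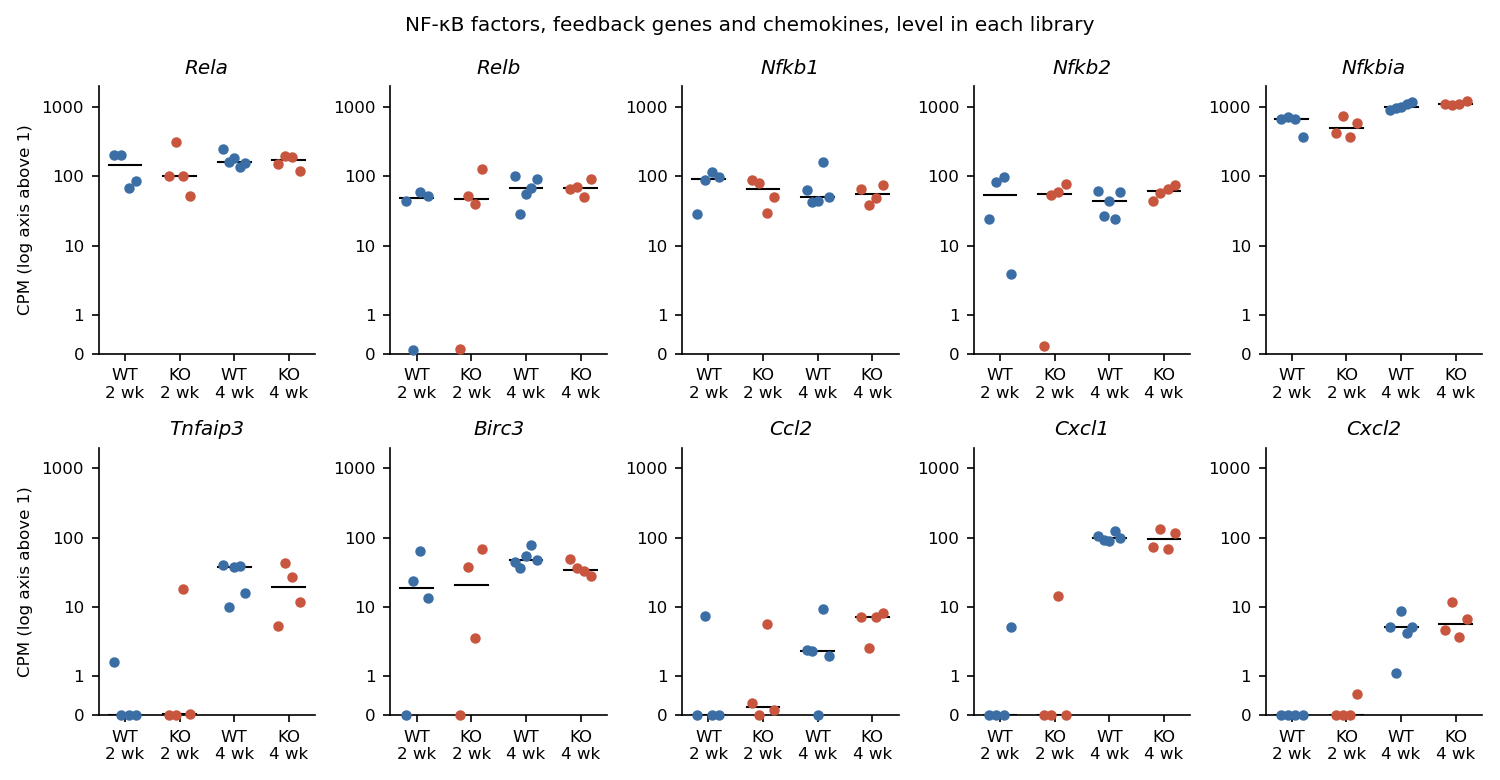
CPM of each of the 10 genes (vertical axis, symmetric log scale) in the 17 libraries by genotype and time, with 1 point per library and a line at the group median. WT and KO points overlap for every gene at both times, and Nfkbia, Cxcl1 and Cxcl2 are the genes whose 9 libraries at 4 weeks all lie above the 8 at 2 weeks.

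Rela (chr19:5637483-5648130, plus strand) encodes the p65 subunit that carries the activation domain of the canonical dimer. At 2 weeks it stood at 202, 204, 68.2 and 86.3 CPM in WT f1, f4, m2 and m3 and at 101, 307, 102 and 52.3 CPM in the KO libraries of those names. The 4-week values were 243.5, 161, 184, 134 and 156 CPM in WT f, f3, m1, m2 and m3 and 148, 197, 189.8 and 118 CPM in KO f2, m1, m2 and m3. Both genotypes held high and low libraries, and their ranges overlapped at each time. The log2 fold change, KO over WT, was 0.0031 (SE 0.389) at 2 weeks and -0.06 (SE 0.203, 95% interval -0.52 to 0.41) at 4 weeks. The 2-week interval was wider, from -0.92 to 0.92.

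Nfkb1 (chr3:135584655-135691547, minus strand) encodes p105, the precursor of p50. Its 2-week values were 28.1, 88.9, 114 and 96.3 CPM in WT and 86.8, 81.1, 29.2 and 50.9 CPM in KO, in the library order given for Rela. At 4 weeks, WT values were 62.5, 42.3, 44.4, 159.9 and 51.0 CPM and KO values 64.7, 38.4, 48.0 and 75.0 CPM. WT m2 stood well above the other 8 libraries. The log2 fold changes were -0.42 (SE 0.572) and -0.32 (SE 0.426), and without WT m2 the 4-week value was 0.24.

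The non-canonical factors were the least evenly detected of the 4. Relb (chr7:19606217-19629438, minus strand) was at 4 counts in WT f4 and 3 counts in KO f1 at 2 weeks, against 40.3 to 127 CPM in the other 6 libraries, and at 28.7 to 100.3 CPM in the 9 libraries at 4 weeks. Nfkb2 (chr19:46304320-46312385, plus strand), the precursor of p52, was at 5 counts in KO f1 and at 3.87 CPM in WT m3 at 2 weeks, against 24.4 to 97.2 CPM in the other 6. KO f1 was thus the library in which both non-canonical factors were at or near the floor. At 4 weeks Nfkb2 ranged from 24.5 to 61.5 CPM in WT and from 43.6 to 74.3 CPM in KO, a log2 fold change of 0.45 (SE 0.324, 95% interval -0.28 to 1.19). Relb differed by 0.01 (SE 0.347). Exons of Nfkb2 overlap Psd and AC114539.1 on the opposite strand, and the strand setting of the counting is not given in the sources used here, so its counts may include reads of those genes.

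Nfkbia (chr12:55489410-55492647, minus strand) had the smallest spread of the 10 genes at 4 weeks. Its values there were 901, 971, 999.7, 1117 and 1179 CPM in WT and 1101, 1052, 1090 and 1228 CPM in KO. The log2 fold change was 0.11 (SE 0.116), and its 95% interval of -0.15 to 0.38 is the narrowest of any member in either genotype comparison. At 2 weeks it stood at 668, 723, 673 and 365 CPM in WT and 417, 745, 372 and 585 CPM in KO, a log2 fold change of -0.17 (SE 0.279). The coefficient of variation over all libraries of a time was 28.1% at 2 weeks and 9.57% at 4 weeks.

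Tnfaip3 (chr10:19000910-19015657, minus strand) was above 3 counts in 2 of the 8 libraries at 2 weeks, WT f1 with 62 counts (1.63 CPM) and KO m2 with 547 counts (18.4 CPM), and was not tested there for lack of counts. At 4 weeks it was detected in all 9, at 39.97, 9.98, 37.8, 39.1 and 15.7 CPM in WT f, f3, m1, m2 and m3 and at 5.42, 43.3, 27.0 and 11.8 CPM in KO f2, m1, m2 and m3. Each genotype held both high and low libraries, and the log2 fold change was -0.68 (SE 0.623, 95% interval -2.10 to 0.74).

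Birc3 (chr9:7848699-7873186, minus strand) was at 0 in WT f1 and KO f1 at 2 weeks and between 3.54 and 69.3 CPM in the other 6 libraries. The 4-week values were 44.2, 36.8, 55.1, 78.5 and 47.7 CPM in WT and 48.9, 36.1, 33.1 and 28.1 CPM in KO. KO m1, m2 and m3 lay below every WT library, and KO f2 lay above 3 of the 5. With a log2 fold change of -0.50 (SE 0.26, 95% interval -1.09 to 0.09), Birc3 had the smallest p of the 10 genes in that comparison, yet ranked 866th of the 15209 genes tested and had an adjusted p of 1.0 by edgeR with Benjamini-Hochberg adjustment.

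The chemokines were detected in few libraries at 2 weeks. Ccl2 (chr11:82035571-82037453, plus strand) had 302 counts in WT f4 and 8, 169 and 5 counts in KO f1, m2 and m3, and none in the other 4 libraries. Values at 4 weeks were 2.43, 2.34, 0, 9.51 and 2.00 CPM in WT and 7.28, 2.57, 7.17 and 8.26 CPM in KO. The highest library was WT m2, and the log2 fold change of 0.99 had an SE of 1.16. It was 2.25 without WT m2, 0.66 without WT m1, the library at 0, and 0.68 without KO f2.

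Cxcl1 (chr5:90891241-90893115, plus strand) had 193 counts in WT m3 (5.12 CPM) and 435 counts in KO m2 (14.6 CPM) at 2 weeks, and 0 counts in each of the other 6 libraries. At 4 weeks it was at 104.5, 93.2, 90.5, 124.7 and 100.8 CPM in WT and 74.6, 134.7, 68.3 and 115.9 CPM in KO. The highest and the lowest library were both KO, and the log2 fold change was -0.09 (SE 0.223, 95% interval -0.60 to 0.42). Cxcl2 (chr5:90903871-90905938, plus strand) had 20 counts in KO m3 at 2 weeks and 0 in the other 7. At 4 weeks it was at 5.19, 1.11, 8.69, 4.27 and 5.15 CPM in WT and 4.64, 11.7, 3.66 and 6.79 CPM in KO, with overlapping ranges and a log2 fold change of 0.41 (SE 0.571). KO m2, the 2-week library highest in Tnfaip3 and Cxcl1, was also the one highest in neutrophil transcripts and held 464 counts of Ptprc (CD45, the antigen the sort selected against). The part of those cells in these counts was not tested.

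None of the 10 genes was called different between KO and WT. At 2 weeks 6 members had enough counts to be tested (not Tnfaip3, Ccl2, Cxcl1 and Cxcl2) and 0 were called at an adjusted p under 0.05 by edgeR's quasi-likelihood test, against 0.0% of the 10477 genes tested. At an unadjusted p under 0.05 the counts were 0 members and 276 genes (2.63%). DESeq2 called 151 genes and limma voom 10, none of them a member. At 4 weeks all 10 were tested and 0 were called, against 0.0% of 15209 genes by edgeR, 17 genes by DESeq2 and 0 by voom. An unadjusted p under 0.05 was reached by 0 members and by 422 genes (2.77%). WT and KO libraries were fully separated for 0 of the tested members at either time, against 3.36% of all tested genes at 2 weeks and 1.19% at 4 weeks. Eng itself, with log2 fold changes of -1.96 (SE 0.249) and -1.72 (SE 0.501), had adjusted p-values of 0.612 and 1.0 in these edgeR fits. In simulated counts drawn from the same libraries, a 4-fold change was called in 4.44% of changed genes at 2 weeks and 48.98% at 4 weeks. Without KO m2 of 4 weeks, which kept the most Eng, 0 members were called and the Cxcl1 value was 0.06.

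**Figure D2:**
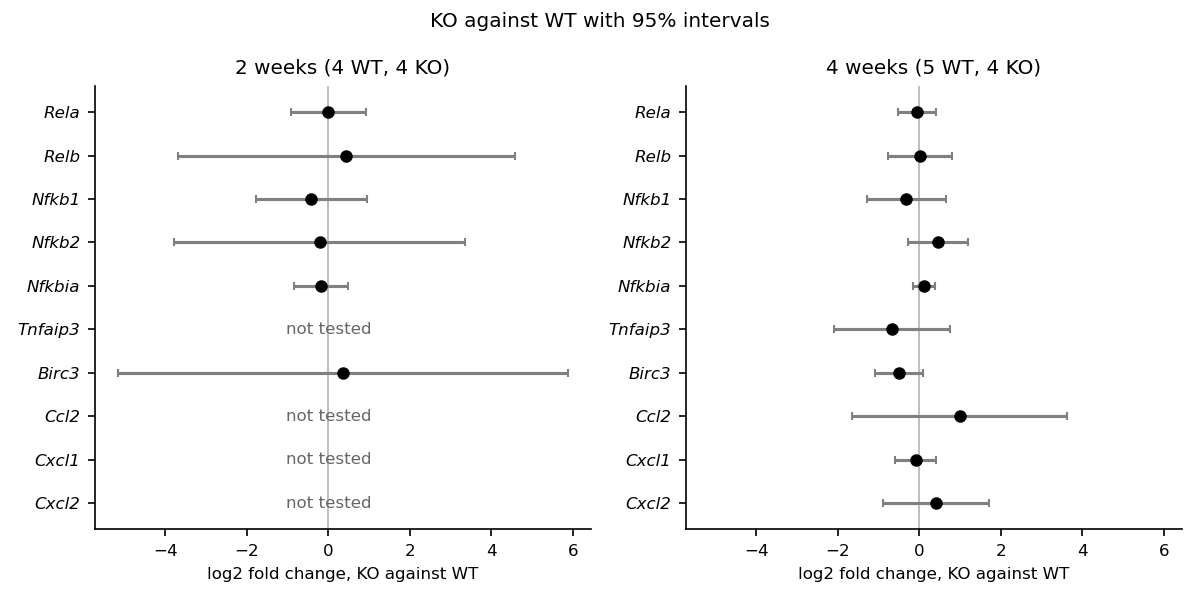
Log2 fold change, KO over WT, of each tested gene at 2 weeks and at 4 weeks, with bars for the 95% interval from the edgeR fit. Every interval includes 0, and those at 4 weeks are narrowest for Nfkbia (-0.15 to 0.38) and widest for Ccl2 (-1.66 to 3.63).

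The pathway lists likewise gave no call between genotypes. Of 38 other NF-kappaB signalling genes (receptors, adaptors, kinases, ubiquitin ligases and inhibitors), 29 were tested at 2 weeks and 38 at 4 weeks, and 0 were called at either time, with median log2 fold changes of -0.30 and -0.06 against -0.06 and 0.01 over all genes tested. The smallest p at 2 weeks belonged to Rbck1 (HOIL-1, part of the linear ubiquitin ligase), at 227 to 391 CPM in WT and 155 to 238 in KO. It differed by -0.85 on the log2 scale (SE 0.222, adjusted p 1.0 by edgeR with Benjamini-Hochberg adjustment). At 4 weeks it belonged to Birc2 (cIAP1, the paralogue of Birc3), at 28.5 to 38.1 CPM in WT and 11.9 to 30.3 in KO, with a log2 fold change of -0.60 (SE 0.278). Ikbkg (NEMO, the regulatory subunit of the IkappaB kinase) was next at both times, with values of 0.88 (SE 0.629) at 2 weeks and -0.65 (SE 0.336) at 4 weeks. The kinase genes Chuk at 2 weeks (-4.61, SE 3.39) and Irak4 at 4 weeks (-0.40, SE 0.208) came next.

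Among 20 other NF-kappaB target genes, 11 and 15 were tested at the 2 times and 0 were called, with medians of 0.18 and 0.10. The 3 with the smallest p were Irf1 (an interferon regulatory factor, log2 fold change 0.48, SE 0.225), Tnfaip2 (-4.75, SE 2.59) and Sdc4 (a cell-surface proteoglycan, -5.32, SE 5.33) at 2 weeks. At 4 weeks they were Sdc4 (-1.05, SE 0.584), Gadd45b (0.24, SE 0.175) and Bcl2l1 (Bcl-xL, an inhibitor of apoptosis, 0.24, SE 0.201). Of 19 other chemokine genes 4 and 9 were tested and 0 were called, with medians of 0.01 and 0.23. Cxcl10, an interferon-induced chemokine, was at 4 weeks at 11.4 to 32.3 CPM in WT and at 16.02 to 67.2 CPM in KO, which differed by 1.06 on the log2 scale (SE 0.465, adjusted p 1.0 by edgeR with Benjamini-Hochberg adjustment). Cxcl12, which holds blood stem cells in the marrow, had values of -0.38 (SE 0.18) at 2 weeks and -0.43 (SE 0.413) at 4 weeks. Cxcl16 (0.12, SE 0.805) at 2 weeks and Cx3cl1 (-0.30, SE 0.325) at 4 weeks were also among the named chemokines. The fitted 2-week value of Cxcl9 (1.67, SE 4.02) ran against its group means, 23.17 CPM in WT and 5.524 CPM in KO, and gives no direction.

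The time points separated some of these genes fully. Nfkbia, Cxcl1 and Cxcl2 had a higher CPM in every one of the 9 libraries at 4 weeks than in every one of the 8 at 2 weeks. This held for 3 of the 10 members and for 5.73% of the 15703 genes tested over both times. The CPM totals include mitochondrial reads, whose larger share at 2 weeks lowers the CPM of other genes there. For Nfkbia, the highest 2-week library was KO f4 (744.6 CPM, 26.55% mitochondrial) and the lowest 4-week library WT f (901.2 CPM, 4.663%). On totals without those reads KO f4 would lie above WT f, so the Nfkbia separation holds only on totals that include them. Tnfaip3, Ccl2, Cxcl1 and Cxcl2 did not pass the filter on low counts at 2 weeks and entered the joint fit through their 4-week counts, which by itself favours a higher 4-week level, so that counts over these 4 genes are a description. Nfkbia passed the filter at both times. The labels give no batch, so time after tamoxifen cannot be told apart from any difference in preparation, and the lower gene detection and higher mitochondrial share at 2 weeks run with it. In bulk libraries fewer cells of a type and less RNA per cell cannot be told apart either. The 4 factor genes and Birc3 overlapped between the times in both genotypes.

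The proximal promoters of Nfkbia, Cxcl1 and Cxcl2 are shown because they are the members whose libraries separated by time in CPM. Each is a stretch of 80 bases from RefSeq on GRCm38.p6, whose last base lies 20 bases (Nfkbia and Cxcl1) or 30 bases (Cxcl2) before the RefSeq start, printed 5′ to 3′ on the gene's strand, with the match to the kappaB motif in capitals. They lie at chr12:55492667-55492746 (minus strand), chr5:90891146-90891225 (plus strand) and chr5:90903790-90903869 (plus strand).
Nfkbia: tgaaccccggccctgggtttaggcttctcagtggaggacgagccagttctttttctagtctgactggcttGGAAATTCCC
Cxcl1: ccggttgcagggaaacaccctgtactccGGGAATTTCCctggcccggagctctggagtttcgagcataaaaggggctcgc
Cxcl2: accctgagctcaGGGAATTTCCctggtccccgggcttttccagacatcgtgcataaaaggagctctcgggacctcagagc
The capitals begin 29 bases before the RefSeq start of Nfkbia, where the motif reads on the opposite strand, 71 bases before that of Cxcl1 and 97 bases before that of Cxcl2. Read on the motif's own strand, the 3 matches are the same 10 letters. Those of Cxcl1 and Cxcl2, which lie near each other on chromosome 5, are both followed by ctgg and are not counted as independent. Windows from 250 bases before to 50 bases after each annotated start were searched on both strands. Of the 7 members with at least 1 window in the table, 5 held the kappaB motif in some window (Nfkb2, Nfkbia, Tnfaip3, Cxcl1 and Cxcl2), as did 6.55% of all 27025 genes. Counted by window, it was in 7 of the members' 10 windows (Nfkb2 has 3 and Tnfaip3 has 2, of which 1 matched) and in 5.8% of all 32851. It was not found in the windows of Rela and Birc3. The members were picked by name as NF-kappaB genes, so their share beside that of all genes is a description. A match says that these letters are present, and no binding was measured.

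In WT, Nfkbia averaged 607 ± 163 CPM (SD, n = 4) at 2 weeks and 1034 ± 113 (n = 5) at 4 weeks, 1.7 times as high. In KO it averaged 530 ± 170 (n = 4) and 1118 ± 76.6 (n = 4), 2.11 times as high. On the log2 scale of the joint edgeR fit the rise was 0.79 (SE 0.218, 95% interval 0.32 to 1.25, Benjamini-Hochberg adjusted p 0.0477) in KO, and the WT value was 0.49 (SE 0.206, adjusted p 0.166), beside medians of 0.49 and 0.42 over all tested genes. In a fit limited to the 4987 genes with at least 10 counts in every library, the medians were -0.02 in KO and 0.0 in WT. Nfkbia was the 1 member called in KO, where 6.33% of all genes were called in either direction and 4.84% upward. The KO call held in 4 of 17 fits that each left out 1 library (WT m2, WT m3, KO f4 or KO m3 of 2 weeks) and was lost in the other 13, with adjusted p-values from 0.022 to 0.106 and log2 values from 0.64 to 0.96. The 8 endothelial markers moved with the same contrast: their means over all libraries of a time were 1.34 (Egfl7) to 3.41 (Emcn) times as high at 4 weeks, with 2.89 for Pecam1 and 2.73 for Cdh5. Pecam1, Cdh5, Emcn and Ly6a were fully separated by time in CPM, and Pecam1, Cdh5 and Emcn were called in both genotypes. These CPM ratios, like those of Nfkbia, are raised by the larger mitochondrial share of the 2-week totals. Ly6a (at most 1820 CPM at 2 weeks, at least 1930 at 4 weeks) would overlap on totals without mitochondrial reads. The part of a different endothelial share in the Nfkbia difference was not tested.

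Cxcl1 averaged 1.28 ± 2.56 CPM (n = 4) in WT at 2 weeks and 102.7 ± 13.5 (n = 5) at 4 weeks, an 80.3-fold ratio. The KO means were 3.66 ± 7.32 and 98.4 ± 32.1 (n = 4 each), a ratio of 26.9. Although no 4-week library came near any 2-week library, the edgeR adjusted p was 0.0981 in WT (log2 value 7.48, SE 2.60) and 0.179 in KO (5.44, SE 2.36). The 2-week means rest on WT m3 and KO m2: without WT m3 the WT adjusted p was 0.0364, and without KO m2 the KO adjusted p was 0.0272. DESeq2 and voom called Cxcl1 in both genotypes, with adjusted p-values of 0.00104 and 0.0187 in WT and 0.0451 and 0.025 in KO. Every one of these fits tested Cxcl1 because of its 4-week counts, so none of these p-values is independent support for the difference.

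Cxcl2 was the 1 member called in WT, where 6.92% of all genes were called in either direction and 5.03% upward, with an edgeR Benjamini-Hochberg adjusted p of 0.0187. Since it passed the filter only through the 4-week groups, in which it is high, this call is conditional on that difference. It was at 0 in all 4 WT libraries at 2 weeks and averaged 4.88 ± 2.70 CPM (n = 5) at 4 weeks, which is at least 60.3-fold above the mean floor of 3 counts per library. In KO the ratio of means was 48.7, from 0.137 ± 0.275 to 6.69 ± 3.57 CPM (n = 4 each), with an adjusted p of 0.0823, or 0.0112 without KO m3, the library with the 20 counts, 0.000528 by DESeq2 and 0.0124 by voom. Tnfaip3 was higher in all 5 WT libraries at 4 weeks than in all 4 at 2 weeks, with means of 28.5 ± 14.5 and 0.408 ± 0.816 CPM and an edgeR adjusted p of 0.261 (0.0469 by DESeq2 and 0.035 by voom). Its KO libraries overlapped between the times because KO m2 at 2 weeks lay above 2 of the 4 later ones, and without KO m2 the KO adjusted p was 0.0458. The p-values of Cxcl2 and Tnfaip3 between the times share the limit given for Cxcl1, whichever tool was used or library left out.

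**Figure D3:**
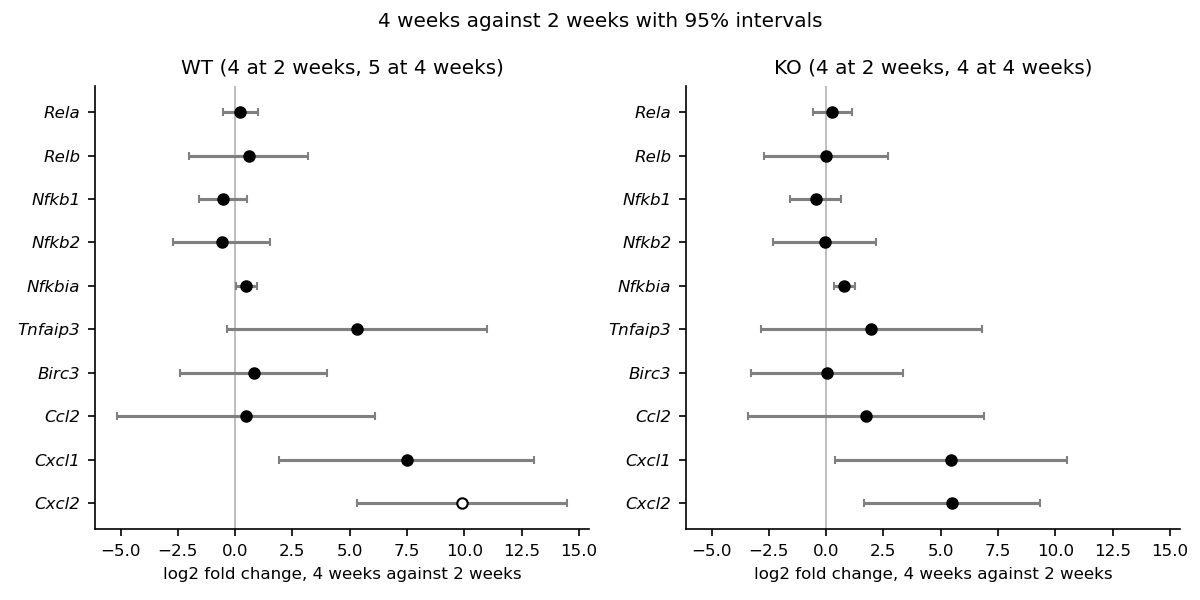
Log2 fold change, 4 weeks against 2 weeks, of each of the 10 genes in WT and KO. Bars show the 95% interval from the joint edgeR fit. The open marker is Cxcl2 in WT (9.9, interval 5.33 to 14.47), whose 2-week libraries are all at 0. The factor genes and Birc3 lie between -0.58 and 0.8, beside 7.48 (WT) and 5.44 (KO) for Cxcl1.

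The joint fit gave 0 members whose KO effect differed between the times, against 0.0764% of 15703 genes (12 genes) by edgeR. DESeq2 called 1303 genes and voom 5, again with 0 members. Cxcl2 was the 1 member with an unadjusted p under 0.05, which 9.81% of all genes also had (adjusted p 0.467 by edgeR with Benjamini-Hochberg adjustment, log2 difference -4.40, SE 1.86), a value that rests on the 20 counts of KO m3 at 2 weeks and was 0.33 without that library. For Nfkbia the difference was 0.29 (SE 0.294, 95% interval -0.34 to 0.92), and for Rela it was 0.04 (SE 0.512).

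Some other transcripts of the pathway also passed the test between the times. Of the 38 signalling genes, Nfkbid (an atypical nuclear inhibitor) rose in both genotypes and Tnfrsf1a (the main TNF receptor) rose in WT, while Rbck1 fell in WT, so that 3 genes of the 38 were called in WT and 1 in KO, beside 6.92% and 6.33% of all genes, and these shares say nothing particular to the list. Of the 15 tested target genes, Ier3 and Irf1 rose in both, Plaur in WT and Il6 in KO, and of the 9 tested chemokines Cxcl10 rose in WT. Nfkbid, Il6 and Cxcl10, like Cxcl2, were not in the 2-week fit and passed the filter through their 4-week counts. Ier3, an early response gene, read 22.95 to 129.4 CPM over the 8 libraries at 2 weeks and 848.1 to 1259 over the 9 at 4 weeks. The list medians, 0.50 and 0.91 (signalling), 1.76 and 1.37 (targets) and 1.31 and 0.28 (chemokines) in WT and KO, stood beside 0.42 and 0.49 over all genes.

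Genes known to be induced while cells are dissociated and sorted ran with the same contrast. The 11 genes on that list (such as Fos, Jun, Egr1, Atf3 and Hspa1a) summed to 1129 to 2462 CPM at 2 weeks and 10020 to 16560 CPM at 4 weeks, and 8 of them were called higher in WT and 9 in KO, beside 5.03% and 4.84% of all genes. For 10 of the 11, all libraries at 4 weeks lay above all at 2 weeks, as for 5.73% of all genes. Their part in the time difference of Nfkbia, Cxcl1 and Cxcl2 was not tested.

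**Figure D4:**
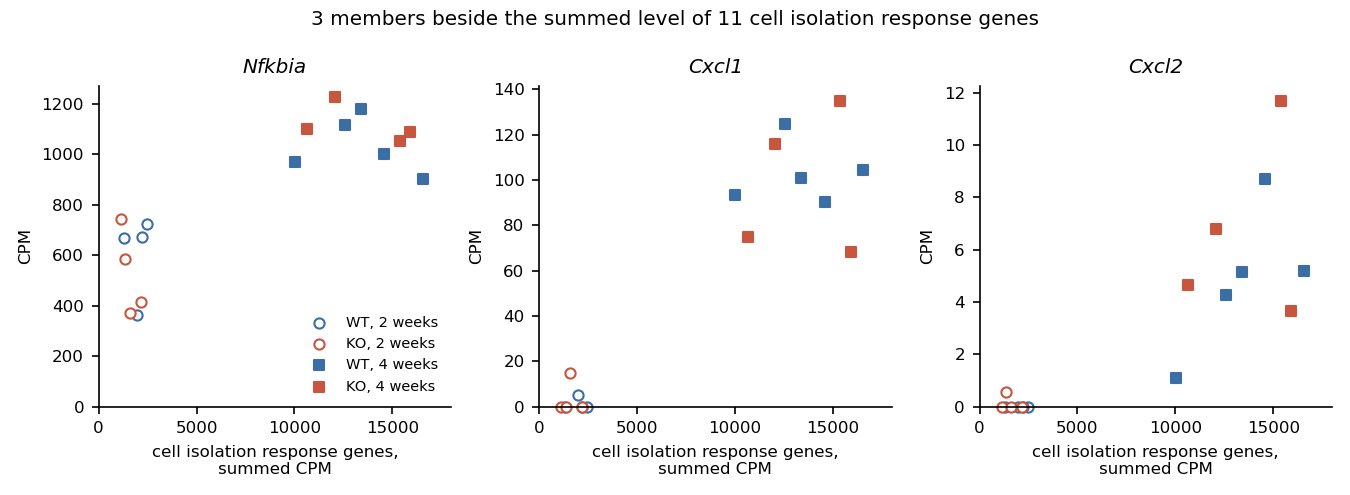
CPM of Nfkbia, Cxcl1 and Cxcl2 (vertical axes) against the summed CPM of 11 genes induced by cell isolation (horizontal axis), with 1 point per library. The 8 libraries at 2 weeks (sums of 1129 to 2462) and the 9 at 4 weeks (10020 to 16560) form separate groups on both axes.

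Within the 4-week libraries, Tnfaip3 split into a low and a high set that crossed the genotypes, a pattern noticed after the values were seen. KO f2 (5.42 CPM), WT f3 (9.98), KO m3 (11.8) and WT m3 (15.7) were the low libraries, and the other 5 lay between 27.0 and 43.3 CPM. The same 4 libraries were the lowest in Kdr, the main VEGF receptor of endothelium, with 416 to 626 CPM against 1646 to 2179 in the other 5. They were also the 4 lowest in Tek (109.6 to 271.6 CPM against 538.8 to 733.5), in Cxcl12 (818.4 to 1131 against 2006 to 2803) and in Fosb, a gene of the cell isolation list (88.34 to 163.6 against 301.4 to 462.9). They were the 4 highest in the endothelial markers Emcn (965.2 to 1207 CPM against 610.4 to 764.2) and Ly6a (2683 to 2990 against 1930 to 2326). The split thus ran through several transcripts of these libraries and was not particular to Tnfaip3 and Kdr. Over genes of at least 10 CPM on average, deviations from the group mean correlated at 0.088 to 0.4427 between WT and KO libraries on the same side of the split. Between WT and KO libraries on opposite sides they correlated at -0.4059 to -0.06595. Nfkbia, Cxcl1 and the stromal marker Pdgfrb did not follow the split. The sum of the 11 cell isolation genes did not sort by it, with WT m3 (13380 CPM) above WT m2 (12570 CPM). Atf3 of that list was lowest in WT m2 (327.7 CPM), a library of the high Tnfaip3 set. The sum of the 8 endothelial markers did not sort by it either, with KO m2 (9899 CPM) below WT f3 (10200 CPM).

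**Figure D5:**
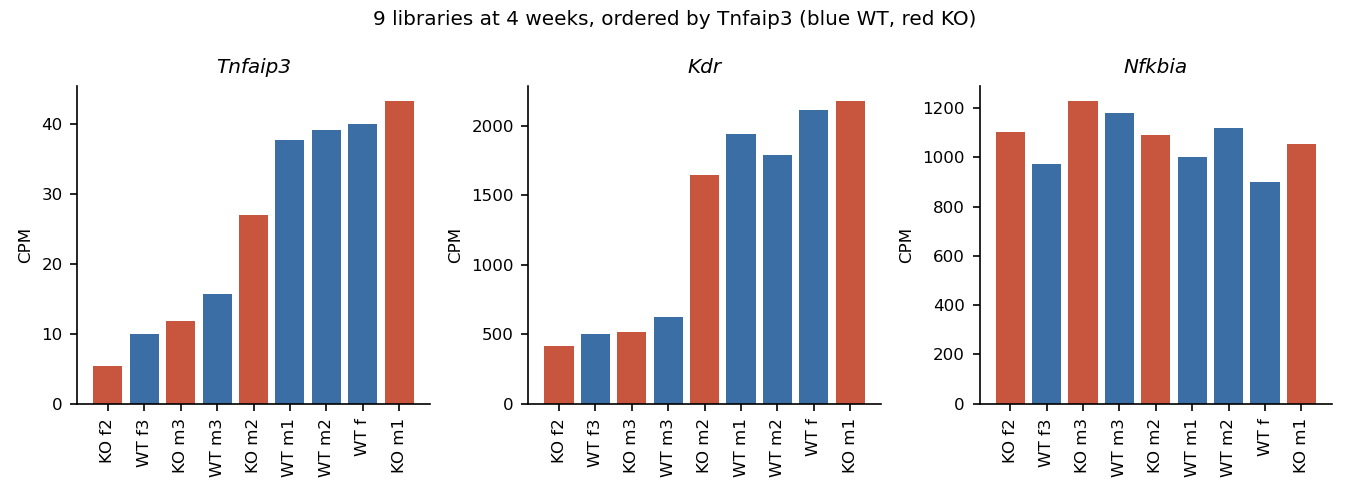
CPM of Tnfaip3, Kdr and Nfkbia (bars, axes from 0) in the 9 libraries at 4 weeks, ordered by Tnfaip3, with WT in blue and KO in red. The 4 libraries lowest in Tnfaip3 (5.42 to 15.7) are also the 4 lowest in Kdr (416 to 626), while Nfkbia lies between 901 and 1228 in all 9.

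The transcripts that varied most like Nfkbia from library to library, after each group's mean was removed, were Parp3 (r = 0.883), Ubr4 (0.867), Cers5 (0.865), Atp13a3 (0.860) and Man1a (0.858), out of 7064 genes with at least 10 CPM on average at both times. Those most like Ccl2 were Prdx6 (0.818), Ckap4 (0.815), Mgll (0.809), Crlf2 (0.802) and Gtpbp6 (0.791) of 7065. These are the top values among all those genes over 17 libraries that share depth and preparation, and they are given as a description.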

How the data were processed

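The deposited values are raw read counts per Ensembl gene, 1 table per SmartSeq2 library, and the authors' replicates were not pooled. Per the submitters' processing notes, cutadapt, STAR and HTSeq 0.6.1p1 and the builds GRCm38 and mm10 were used; settings and strand are not given in the sources used here. Symbols were taken from GENCODE M21 for 49326 of 49585 identifiers.

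Counts were tested with edgeR 4.0.16 (R 4.3.3): filterByExpr, TMM scaling, robust quasi-likelihood fits with a sex term, and Benjamini-Hochberg adjustment over all tested genes, with a threshold of 0.05. KO and WT were fitted separately at each time, and time contrasts and their difference in 1 fit of 17 libraries. DESeq2 1.42.0, limma 3.58.1 (voom), other scalings, filters, covariates and left-out libraries were alternatives. The fits were tested on simulated data with 200 changed genes. No 2 libraries of the same group agreed within sampling noise. The members and gene lists were chosen with earlier results of these data known. Named pathway genes are the 3 with the smallest p per list and time, with a mean of at least 1 CPM, or those called.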

Additional observations from a re-analysis of the deposited data

Results flagged for a closer look

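In 10 of 39 groups of 4 or 5 libraries tested, 1 library lay apart from the others of its group by Dixon's criterion. Chance meets it in about 1 of 20 groups of normally distributed values, a rate that does not hold for groups with many zeros. In 5 of the 10 (Tnfaip3 and Ccl2 in WT, Cxcl1 in WT and KO, and Cxcl2 in KO, all at 2 weeks) every other library of the group was at 0, so the criterion was met automatically. Most of these concern genes near the floor at 2 weeks or Ccl2. For Tnfaip3 they were WT f1 (1.632 CPM) and KO m2 (18.41 CPM) at 2 weeks. For Ccl2 they were WT f4 (7.387 CPM) and KO m2 (5.689 CPM) at 2 weeks and WT m2 (9.507 CPM) at 4 weeks. For Cxcl1 they were WT m3 (5.116 CPM) and KO m2 (14.64 CPM), and for Cxcl2 it was KO m3 (0.5498 CPM), all at 2 weeks. The remaining libraries were WT m3 at 2 weeks for Nfkbia, low at 365.2 CPM, and WT m2 at 4 weeks for Nfkb1, high at 159.9 CPM. KO m2 at 2 weeks thus stood apart for Tnfaip3, Ccl2 and Cxcl1, and it also held the highest sum of neutrophil transcripts (4104 CPM), whose part was not tested.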

How the results depend on the processing

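No member was called between KO and WT at either time, or for the difference of the KO effects, under any alternative run. The 1 call in WT between the times became 3 under DESeq2, 3 under voom and 0 with at least 10 counts in every library required (3 members were then tested), and was 1 to 2 with 1 library left out. The 1 call in KO became 3 under DESeq2 and voom and 0 under upper-quartile scaling, without a filter and without mitochondrial genes, and was 0 to 2 with 1 library left out. The gene called also changed: it was Cxcl2 in place of Nfkbia (adjusted p 0.138) without KO m2 and m3 of 2 weeks, and Tnfaip3 and Cxcl1 in place of Nfkbia without KO m2. Cxcl2 in WT passed in every alternative in which it was tested, with adjusted p-values from 4.63e-08 to 0.0468, but each of these fits admitted it through its 4-week counts, so this says nothing of stability. Directions turned for values near 0 or resting on few libraries, and the cause was not tested. At 2 weeks these were Rela under a stricter filter (-0.0095), voom (-0.16), no sex term (-0.00022), the replicate block (-0.13) and without KO m2 and m3 (-0.0037). Also at 2 weeks, voom gave Nfkb2 1.63 and Birc3 -0.98, and leaving out KO m2 and m3 gave Nfkb1 0.50. At 4 weeks the joint fit gave Rela 0.07 and Relb -0.09, the block Rela 0.07 and Relb -0.05, and voom Nfkb1 0.07. For the difference of effects, Rela was -0.13 without the sex term, the block gave Nfkb1 -0.09 and Ccl2 -2.75, and voom gave Birc3 0.50. Without KO m2 and m3 of 2 weeks it was -0.32 for Rela, 0.16 for Relb, -0.58 for Nfkb1, 6.67 for Tnfaip3, 6.77 for Cxcl1 and 0.07 for Cxcl2. Between the times in WT, voom gave Nfkb2 0.52. In KO, Rela was -0.09 without the sex term and -0.13 without KO m2 and m3, which also gave Relb 0.71 and Nfkb2 0.81. Relb in KO was 0.02 under DESeq2 and under RLE scaling and 0.68 under voom, where Nfkb2 was 0.59, and upper-quartile scaling gave Birc3 -0.03.

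With 1 library left out, the log2 ranges that crossed 0 at 2 weeks were -0.40 to 0.25 for Rela, -0.91 to 2.16 for Relb, -1.0 to 0.41 for Nfkb2, -0.36 to 0.0077 for Nfkbia and -1.54 to 1.60 for Birc3. At 4 weeks they were -0.17 to 0.10 for Rela, -0.15 to 0.26 for Relb, -0.63 to 0.24 for Nfkb1 and -0.24 to 0.06 for Cxcl1. Ranges on 1 side of 0 between KO and WT were -0.87 to -0.04 for Nfkb1 at 2 weeks, and at 4 weeks 0.23 to 0.63 for Nfkb2, 0.05 to 0.16 for Nfkbia, -1.13 to -0.16 for Tnfaip3, -0.88 to -0.31 for Birc3, 0.66 to 2.25 for Ccl2 and 0.12 to 0.71 for Cxcl2. For the difference of effects the ranges that crossed 0 were -0.19 to 0.53 for Rela, -1.04 to 0.11 for Relb, -0.25 to 0.66 for Nfkb1, -0.02 to 0.90 for Nfkb2, -11.04 to 4.41 for Tnfaip3, -1.58 to 0.24 for Birc3, -7.44 to 4.18 for Ccl2, -9.49 to 7.44 for Cxcl1 and -4.88 to 0.33 for Cxcl2. Between the times the ranges that crossed 0 were -0.32 to 9.53 for Ccl2 in WT, and -0.44 to 0.66 for Relb, -0.45 to 0.27 for Nfkb2 and -0.60 to 1.0 for Birc3 in KO.

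Same-numbered WT and KO libraries correlated at 0.0448, -0.0155, -0.012 and 0.0172 at 2 weeks and at 0.292, 0.088 and 0.4228 among the males at 4 weeks. Not every pair exceeded 0.1, and libraries with different numbers correlated as strongly at 4 weeks (0.4427 for WT f3 with KO f2, 0.3497 for WT f with KO m1), so the numbers were not taken as pairs. With a replicate block 0 members were called at 2 weeks, at 4 weeks and for the difference.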
